A study of Mus musculus with 4 samples.

Results

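Chemokines are small secreted or membrane-held proteins that direct the movement of leukocytes, and their receptors are the cell surface proteins that read them. The genes described here are all those of a deposited mouse liver expression table whose symbol starts with Ccl, Cxcl or Ccr, Cxcr or Ackr and a number, together with Cx3cl1 and Cx3cr1. The rule found 34 of the 13903 listed genes, which are 21 ligands and 13 receptors, and used no measured value. All 34 matched a protein-coding gene of the GENCODE M21 annotation by their gene identifier. Chemokine genes outside the 34 were not analysed here unless they are named below.

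The livers came from OGT-Floxed mice of the C57BL/6J background that were given a CDE diet, the choline-deficient, ethionine-supplemented diet that injures hepatocytes (Heps) and brings on a ductular and inflammatory response. Ogt encodes O-GlcNAc transferase, the enzyme that adds O-GlcNAc to proteins. The OGT-KO label stands for AAV8-TBG-CRE, in which the thyroxine-binding globulin promoter restricts Cre to Heps, whereas AAV8-TBG-eGFP was given to those labelled control, so floxed alleles, diet and a viral vector were shared by all groups. Livers were collected with no recovery or 7 days into recovery. Bulk mRNA-seq was run on 1 library for each of the 4 conditions, a pool of RNA from 3 mice, so no value carries an error between animals, and no difference between conditions was tested.

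The table holds CPM, the reads of a gene scaled to a library total of 1000000, and whole reads could be recovered from them. The libraries held 19972699 to 22866431 reads on listed genes, and 3 reads, taken as the floor of detection, correspond to 0.131 to 0.150 CPM. Intervals below are 95% exact Clopper-Pearson intervals of the reads or, for a ratio of 2 libraries, of the share of their pooled reads. They cover counting error only and leave out the spread between mice. Genes were called higher or lower at a 2-fold difference of CPM + 1, and log2 fold changes below are on the log2(CPM + 1) scale, which makes the change of genes with few reads look smaller.

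Ogt itself had 55.3 CPM (52.3 to 58.5) in the OGT-KO-labelled library and 64.7 (61.3 to 68.2) in the control-labelled library with no recovery. After 7 days it had 77.7 CPM (74.1 to 81.4) in the OGT-KO-labelled library and 55.7 (52.5 to 59.0) in the control-labelled library. In CPM this goes against the label. Which exons are floxed, and so what share of Ogt reads Cre could remove, is not given in the sources used here. Ogt was compared in CPM only, and other scalings were not tried on it. On that scale 82.3% of all listed genes stood higher in the OGT-KO-labelled library at 7 days. Ccl9, at 63.0 against 45.1 CPM there, changed to a log2 value of -0.0047 under upper-quartile and -0.20 under median-ratio scaling. The Ogt excess is thus no firm evidence against the label. Groups are therefore called by their labels throughout. Every direction drawn after 7 days rests on a label that the Ogt level in CPM does not bear out. For the 6 Heps markers (Alb, Apoa1, Ttr, Apob, Cps1 and Hnf4a) the CPM were added up in each library. With no recovery this sum was 53391 under the OGT-KO label against 71550 under the control label. The sums at 7 days were 65476 and 79427, in the same order. Alb made up most of every sum, and its ratios of OGT-KO to control were 0.864 and then 0.946. Whether these sums bear on the label was not tested.

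As background, the CC and CXC families are named for the spacing of their first cysteines, and both signal through G protein-coupled receptors. Inflammatory chemokines such as Ccl2 are made on demand and draw in monocytes, neutrophils or activated lymphocytes, whereas homeostatic chemokines such as Cxcl12 are made steadily by stromal and endothelial cells. Atypical receptors bind chemokines without G protein signalling and take them out of circulation. In the liver, Kupffer cells, sinusoidal endothelial cells, stellate cells, cholangiocytes and Heps can all make chemokines, and the receptors sit mostly on the leukocytes that arrive.

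With no recovery, 18 of the 34 genes (52.9%) were at least 2-fold higher in the OGT-KO-labelled library than in the control-labelled library, where 33.1% of every listed gene met the same rule. After 7 days the count was 19 of 34 (55.9%), against 32.3% of all listed genes. At both times 16 of 34 genes (47.1%) were higher, against 26.9% of all listed genes. They included the ligands Ccl2, Ccl3, Ccl5, Ccl6, Ccl22, Cxcl5, Cxcl10, Cxcl14, Cxcl16 and Cx3cl1 and the receptors Ccr1, Ccr2, Cxcr4, Cx3cr1 and Ackr3. Ackr4 was the 1 gene at least 2-fold lower with no recovery, where 4.35% of all listed genes were, and 0 were lower by that much after 7 days, where 3.32% were.

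The whole table was shifted towards the OGT-KO-labelled libraries on this scale, and the chemokine values have to be read against that shift. Of the 34 genes 26 had a mean of 1 CPM or more, as had 12989 genes of the table. The median log2 fold change over all 34 was 1.32 with no recovery and 1.35 at 7 days, over the 26 it was 1.51 and 1.77, and over the 12989 it was 0.64 and 0.61. Among the 26, 16 were called higher with no recovery, 18 after 7 days and 16 at both times, where 33.5%, 32.7% and 28% of the 12989 were, and 1 and 0 were called lower with no recovery and after 7 days, where 4.6% and 3.5% were. Chemokine genes are mostly of low level, and of the genes between 1 and 50 CPM in mean, 24 of them chemokine or receptor genes, 39.2% were called higher with no recovery, 38.3% after 7 days and 32.9% at both times. Of the 26 genes 10 passed only through the OGT-KO-labelled libraries, with a mean below 1 CPM in the control libraries, so the counts over the 26 are not evidence of a difference. Under scaling by the median ratio, as in DESeq2 size factors, the median over the 12989 was -0.02 and then -0.03, and that over the 26 genes was 1.12 and 1.41. A bulk liver library cannot tell fewer cells of a type from less RNA of a gene per cell.

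**Figure D1:**
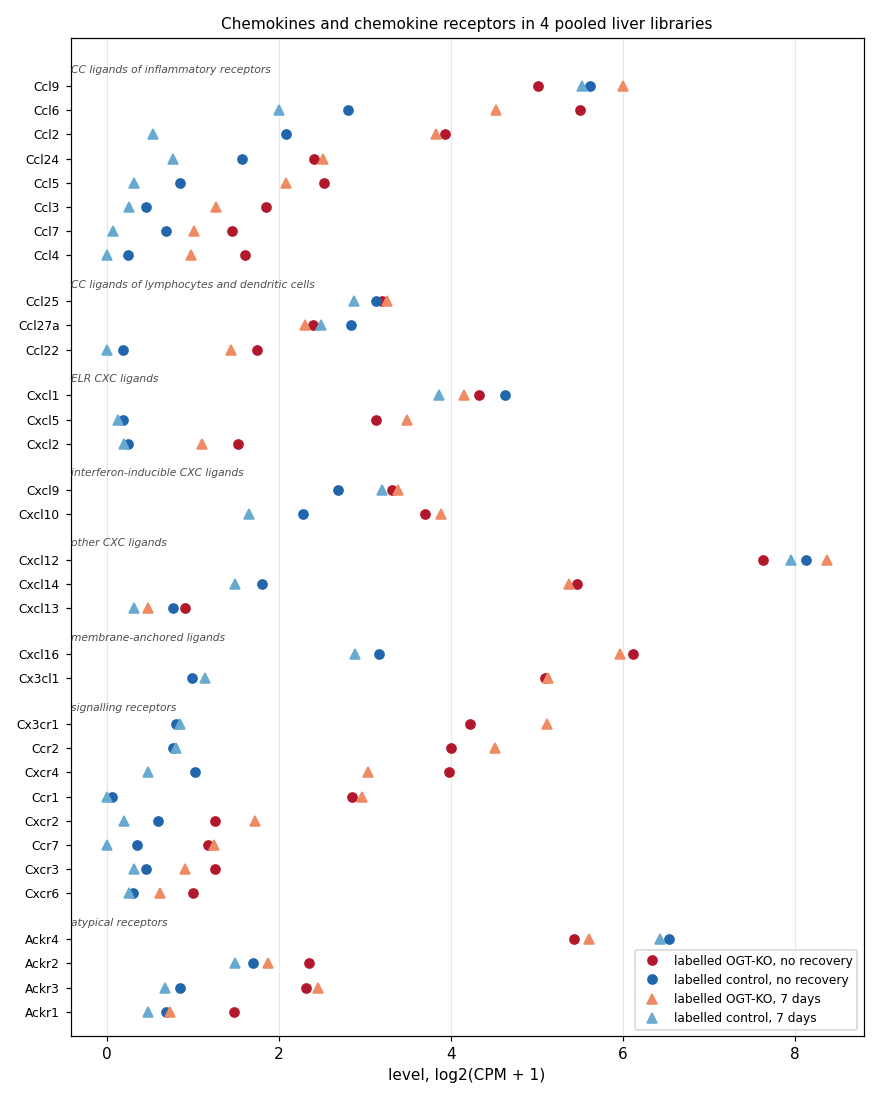
Level of 33 of the 34 genes as log2(CPM + 1) on the horizontal axis, 1 row per gene grouped by role; circles are no recovery, triangles 7 days of recovery, red and orange the OGT-KO-labelled libraries, dark and light blue the control-labelled ones (1 library each). The red and orange points both lie to the right of both blue points for 27 of the 33 genes shown (20 of the 25 past 1 CPM, where this held for 73.7% of all genes), Cxcl12 has the most CPM in every library, and Ackr4 and Ccl27a have both blue points to the right (13.5% of all genes).

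Among the CC ligands of inflammatory receptors, which draw in monocytes, macrophages, eosinophils and effector T cells, 8 genes were measured. Their summed level was 105 CPM with no recovery and 109 after 7 days in the OGT-KO-labelled libraries, and 61.0 and 49.8 in the control-labelled ones. Ccl2, the main chemoattractant of inflammatory monocytes, had 14.3 CPM with no recovery and 13.2 after 7 days in the OGT-KO-labelled libraries and 3.25 and 0.451 in the control-labelled ones. The level stayed close in the OGT-KO-labelled libraries while the control library after 7 days, with 9 reads, was the lowest of the 4. The ratio of OGT-KO to control was 4.39 (3.38 to 5.78) with no recovery, then 29.3 (15.2 to 64.7) after 7 days, and these intervals do not overlap.

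Ccl6, a myeloid ligand of Ccr1, had 44.1 CPM with no recovery and 21.9 after 7 days in the OGT-KO-labelled libraries and 5.97 and 3.00 in the control-labelled ones. Its level was about 50% lower after 7 days in both, and the ratio between labels was nearly the same at 7.39 (6.14 to 8.95) and 7.30 (5.58 to 9.71). Ccl24, which attracts eosinophils through Ccr3, had 4.33 CPM with no recovery and 4.70 after 7 days in the OGT-KO-labelled libraries against 1.98 and 0.701 in the control-labelled ones. Its ratio was 2.19 (1.51 to 3.22) with no recovery, short of the 2-fold call on the CPM + 1 scale, and 6.70 (3.82 to 12.7) after 7 days.

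Ccl5, a product of activated T cells, NK cells and macrophages, had 4.77 CPM with no recovery and 3.23 after 7 days in the OGT-KO-labelled libraries and 0.800 and 0.250 in the control-labelled ones. The ratios were 5.96 (3.56 to 10.6) and 12.9 (5.29 to 41.0), the second resting on 5 control reads. Ccl3, a macrophage inflammatory protein that signals through Ccr1, had 2.62 CPM with no recovery and 1.42 after 7 days in the OGT-KO-labelled libraries, against 0.376 and 0.200 in the control-labelled ones, and ratios of 6.97 (3.32 to 16.9) and 7.08 (2.51 to 27.6). Both genes had their lowest level in the control library after 7 days, and neither overlapped between the labels.

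Ccl9, another myeloid ligand of Ccr1, did not follow its neighbours. It had 31.2 CPM with no recovery and 63.0 after 7 days in the OGT-KO-labelled libraries and 47.8 and 45.1 in the control-labelled ones, so the OGT-KO-labelled libraries held both its lowest and its highest level. The ratio was 0.653 (0.592 to 0.719) with no recovery, then 1.40 (1.28 to 1.52) after 7 days. The second value is not stable to scaling, since the log2 fold change of 0.47 became -0.0047 under upper-quartile and -0.20 under median-ratio scaling.

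Ccl5, Ccl9, Ccl6, Ccl3 and Ccl4 lie within 1 stretch of 139 kb on chromosome 11 (chr11:83525778-83664683, GRCm38). Ccl6 and Ccl9 are neighbours there, and their promoter windows, 250 bases before to 50 after the transcription start as RefSeq gives them on GRCm38.p6, are shown because their changes differed widely (2.69 against -0.60 in log2 with no recovery). Both are on the minus strand, at chr11:83593038-83593337 and chr11:83578587-83578886, and are written 5′ to 3′ in the direction of transcription. Capitals mark matches, on either strand, to the NF-κB consensus, to GAAA repeated after any 2 bases (the core of interferon-stimulated response elements) or to TGANTCA. This last pattern is looser than the AP-1 consensus, since it takes any middle base where AP-1 has C or G.
Ccl6: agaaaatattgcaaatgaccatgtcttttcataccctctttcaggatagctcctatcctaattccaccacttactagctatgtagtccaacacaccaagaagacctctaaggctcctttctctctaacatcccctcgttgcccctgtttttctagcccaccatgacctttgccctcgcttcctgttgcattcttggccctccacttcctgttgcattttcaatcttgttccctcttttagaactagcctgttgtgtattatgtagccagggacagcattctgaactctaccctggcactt
Ccl9: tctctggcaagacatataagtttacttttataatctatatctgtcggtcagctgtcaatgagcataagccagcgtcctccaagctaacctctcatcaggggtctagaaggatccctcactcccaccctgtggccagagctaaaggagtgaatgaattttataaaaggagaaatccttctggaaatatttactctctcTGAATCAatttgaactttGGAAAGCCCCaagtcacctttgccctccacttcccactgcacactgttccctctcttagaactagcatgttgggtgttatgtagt
In the Ccl9 window TGANTCA begins 53 bases and the NF-κB consensus 35 bases before the start, and the Ccl6 window holds none of the 3 motifs. The TGANTCA match of Ccl9 has A as its middle base and so is not the AP-1 consensus. No match says only that these letters are not in this window.

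Promoter windows were found for 25 of the 34 genes, and those without one include Ccl2, Ccl24, Ccl4, Ccl5, Ccl7, Cxcl5, Cxcl16 and Ccr7. The NF-κB consensus was in the window of 7 of the 25 genes (Ackr2, Ccl27a, Ccl9, Ccr1, Cxcl1, Cxcl10 and Cxcl2), and in 9.55% of the 27025 mouse genes with a window of that length. The GAAA repeat was in 2 (Cxcl10 and Cxcl14), against 3.99% of all genes, and TGANTCA in 4 (Ccl27a, Ccl9, Cxcl10 and Cxcl9), against 8.97%. The 7 genes with the NF-κB consensus include Cxcl10 and Ccr1, which were higher at both times in the OGT-KO-labelled libraries, and Ccl27a, whose ratio was below 1 at both (with an interval that included 1 after 7 days).

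The 2 remaining ligands of this group, Ccl4 and Ccl7, were below a mean of 1 CPM. Ccl4, a macrophage inflammatory protein related to Ccl3, had 2.06 CPM with no recovery and 0.975 after 7 days in the OGT-KO-labelled libraries, and 4 reads and 0 reads in the control-labelled ones. Against the floor of 3 reads in the control library, its level after 7 days was at least 6.49-fold higher in the OGT-KO-labelled library, and the lower limit of the counting interval, which also covers the error of the OGT-KO reads, was 4.85. Ccl7, a second monocyte attractant next to Ccl2 on chromosome 11, had 1.75 CPM with no recovery and 1.02 after 7 days against 0.612 and 0.0501, and its ratio after 7 days was 20.4 (3.31 to 839) on 1 control read.

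The CC ligands of lymphocytes and dendritic cells comprised Ccl22, Ccl25 and Ccl27a. Ccl22, made by dendritic cells and macrophages to draw Ccr4-bearing T cells, had 2.36 CPM with no recovery and 1.73 after 7 days in the OGT-KO-labelled libraries, and 3 reads and 0 reads in the control-labelled ones. The ratio with no recovery was 16.7 (5.43 to 83.7), and after 7 days the level was at least 11.5-fold higher against the floor, with a lower counting limit of 8.92. Ccl25, which guides T cells to thymus and gut, had 8.18 CPM with no recovery and 8.60 after 7 days in the OGT-KO-labelled libraries and 7.76 and 6.36 in the control-labelled ones. Its ratios of 1.05 (0.850 to 1.31) and 1.35 (1.08 to 1.70) were small, and its log2 fold changes turned to -0.57 and -0.22 under median-ratio scaling. Ccl27a had 4.29 CPM with no recovery and 3.94 after 7 days against 6.16 and 4.61, with ratios of 0.695 (0.530 to 0.911) and 0.856 (0.632 to 1.16). The mouse genome holds near-identical copies of Ccl27a, and the way reads on such copies were counted is not given in the sources used here, so its level is uncertain.

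The CXC ligands with a glutamate-leucine-arginine (ELR) motif draw neutrophils through Cxcr2. Cxcl1, Cxcl2 and Cxcl5 lie within 147 kb of chromosome 5 (chr5:90759360-90905938, GRCm38) and differed widely. Cxcl5 had 7.78 CPM with no recovery and 10.2 after 7 days in the OGT-KO-labelled libraries, and 3 reads and 2 reads in the control-labelled ones. The ratios of 55.2 (18.6 to 270) and 102 (27.9 to 845) have wide intervals because of the few control reads, and both lower limits are above 15. Cxcl1, in contrast, was well expressed in all libraries, with 19.1 CPM with no recovery and 16.8 after 7 days in the OGT-KO-labelled ones and 23.8 and 13.6 in the control-labelled ones.

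The control library with no recovery was the highest for Cxcl1 and the control library after 7 days the lowest, so the labels overlapped. Its ratio was 0.803 (0.704 to 0.914) with no recovery, then 1.24 (1.06 to 1.46) after 7 days, and the log2 value after 7 days, 0.29, turned to -0.16 under upper-quartile and -0.35 under median-ratio scaling. Cxcl2 had 1.88 CPM with no recovery and 1.15 after 7 days in the OGT-KO-labelled libraries and 0.188 and 0.150 in the control-labelled ones, with ratios of 9.99 (3.63 to 38.3) and 7.67 (2.35 to 39.6). Its mean was below 1 CPM, so its interval is wide, but the OGT-KO-labelled libraries were both above the control-labelled ones.

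The promoter windows of Cxcl1 and Cxcl2 are shown because these neighbouring plus-strand genes carry the same match to the NF-κB consensus while their levels differed in opposite directions with no recovery. They are at chr5:90890995-90891294 and chr5:90903649-90903948 (GRCm38.p6, RefSeq), with capitals as above.
Cxcl1: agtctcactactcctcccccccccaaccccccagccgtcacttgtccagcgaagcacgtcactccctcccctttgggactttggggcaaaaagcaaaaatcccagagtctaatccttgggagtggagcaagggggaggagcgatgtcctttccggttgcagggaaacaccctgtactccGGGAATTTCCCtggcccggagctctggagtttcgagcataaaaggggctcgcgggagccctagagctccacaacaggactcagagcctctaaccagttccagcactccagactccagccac
Cxcl2: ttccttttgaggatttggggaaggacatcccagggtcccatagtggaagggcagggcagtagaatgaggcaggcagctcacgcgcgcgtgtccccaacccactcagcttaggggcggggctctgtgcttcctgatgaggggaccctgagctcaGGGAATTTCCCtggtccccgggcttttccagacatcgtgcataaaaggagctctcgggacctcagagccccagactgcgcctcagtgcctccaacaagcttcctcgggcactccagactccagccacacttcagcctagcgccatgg
The capitals are 1 stretch of 11 bases that matches the NF-κB consensus on both strands, and it begins 71 bases before the start of Cxcl1 and 97 bases before that of Cxcl2.

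Cxcl9 and Cxcl10 are the interferon-inducible ligands of Cxcr3, which draw activated T cells and NK cells. Cxcl10 had 12.0 CPM with no recovery and 13.8 after 7 days in the OGT-KO-labelled libraries and 3.86 and 2.15 in the control-labelled ones. Its ratio was 3.12 (2.43 to 4.04) with no recovery, then 6.40 (4.64 to 9.02) after 7 days. The log2 fold change with no recovery, 1.42, became 0.80 under median-ratio scaling, short of the 2-fold call. Cxcl10 lies within the gene Art3 on the opposite strand and shares 133 exonic bases with it. Art3 had 4.64, 3.90, 1.93 and 0.701 CPM in the libraries of OGT-KO with no recovery, OGT-KO after 7 days, control with no recovery and control after 7 days. Whether counting used the strand is not given in the sources used here, so reads of the shared bases cannot be told apart.

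Cxcl9, which lies with Cxcl10 within 27.5 kb of chromosome 5, had 8.92 CPM with no recovery and 9.48 after 7 days in the OGT-KO-labelled libraries and 5.46 and 8.16 in the control-labelled ones. The ratio of 1.63 (1.30 to 2.07) with no recovery was 1.16 (0.943 to 1.43) after 7 days, when the interval included 1. Neither value is stable to scaling. The log2 fold change with no recovery, 0.62, became -0.0093 under median-ratio scaling. That after 7 days, 0.19, turned to -0.24 under upper-quartile and -0.42 under median-ratio scaling. Cxcl9 was the only 1 of the 34 genes with more CPM in the control library after 7 days than with no recovery beyond counting error. The promoter window of Cxcl10, on the minus strand at chr5:92348840-92349139, is shown because it held all 3 motifs searched.
Cxcl10: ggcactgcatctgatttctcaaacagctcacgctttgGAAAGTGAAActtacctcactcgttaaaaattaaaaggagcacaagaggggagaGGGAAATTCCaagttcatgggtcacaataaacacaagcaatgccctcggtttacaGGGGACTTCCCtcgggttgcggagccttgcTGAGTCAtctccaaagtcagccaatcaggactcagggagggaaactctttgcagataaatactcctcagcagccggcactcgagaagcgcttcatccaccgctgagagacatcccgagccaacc
From the 5′ end, the capitals are the GAAA repeat, which begins 213 bases before the start, 2 stretches matching the NF-κB consensus, which begin 159 and 104 bases before it, and TGANTCA, which begins 74 bases before it.

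Cxcl12, the homeostatic ligand of Cxcr4 that holds progenitors and lymphocytes near stromal cells, had the highest mean level per length of all 34 genes, with 24.0 CPM per kb with no recovery and 40.4 after 7 days in the OGT-KO-labelled libraries and 33.9 and 30.2 in the control-labelled ones. In the OGT-KO-labelled library with no recovery Ccl6, at 24.6 CPM per kb, stood level with it. In CPM it had 197 CPM with no recovery and 331 after 7 days in the OGT-KO-labelled libraries and 277 and 247 in the control-labelled ones. The OGT-KO-labelled libraries were thus the lowest and the highest of the 4. The ratio was 0.710 (0.682 to 0.738) with no recovery, then 1.34 (1.29 to 1.39) after 7 days, and the value after 7 days turned below 1 under upper-quartile and median-ratio scaling (log2 -0.07 and -0.27).

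Cxcl12 held the largest share of the ligand reads in every library. It made up 69.7% (68.7 to 70.7) of the reads of the 21 ligands in the control library with no recovery and 72.3% (71.3 to 73.4) in the control library after 7 days, but 38.4% (37.5 to 39.3) and 51.5% (50.7 to 52.3) in the OGT-KO-labelled libraries. Without Cxcl12 the other 20 ligands summed to 315 and 311 CPM in the OGT-KO-labelled libraries and 121 and 94.5 in the control-labelled ones. The ratio of these sums was 2.61 (2.50 to 2.74) with no recovery, then 3.29 (3.13 to 3.46) after 7 days.

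Cxcl14, a chemokine of epithelial and stromal tissues whose receptor is not settled, had 43.1 CPM with no recovery and 40.2 after 7 days in the OGT-KO-labelled libraries and 2.49 and 1.80 in the control-labelled ones. The ratios were 17.3 (13.1 to 23.2) and 22.3 (16.0 to 32.1), each on at least 36 reads in every library. Per length its mean over both OGT-KO-labelled libraries came after that of Cxcl12 alone, with 23.6 and 22.0 CPM per kb. Cxcl13, the B cell attractant, had 20, 9, 15 and 5 reads in the libraries of OGT-KO with no recovery, OGT-KO after 7 days, control with no recovery and control after 7 days, and both ratios had intervals that included 1.

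The membrane-anchored ligands Cx3cl1 and Cxcl16 are made as transmembrane proteins that hold leukocytes fast and are shed by Adam10 and Adam17 to act as soluble attractants. Cx3cl1 (fractalkine) had 33.2 CPM with no recovery and 34.0 after 7 days in the OGT-KO-labelled libraries and 0.988 and 1.20 in the control-labelled ones. Within each label the levels at both times were close in value, with ratios of 7 days to no recovery of 1.02 (0.925 to 1.13) for OGT-KO and 1.22 (0.649 to 2.30) for control. Between labels the ratio was 33.6 (21.9 to 54.7) with no recovery, then 28.3 (18.9 to 44.5) after 7 days. With no recovery this was the largest ratio of the ligands that had more than 3 reads in both libraries compared.

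The promoter window of Cx3cl1, on the plus strand at chr8:94771930-94772229 (GRCm38.p6, RefSeq), is shown because of that ratio and held none of the 3 motifs.
Cx3cl1: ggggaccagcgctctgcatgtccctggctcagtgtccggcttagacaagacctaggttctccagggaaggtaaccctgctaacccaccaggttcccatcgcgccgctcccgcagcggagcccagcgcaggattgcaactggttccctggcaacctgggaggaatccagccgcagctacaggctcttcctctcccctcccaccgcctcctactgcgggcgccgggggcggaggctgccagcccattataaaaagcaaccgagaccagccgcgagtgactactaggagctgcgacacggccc
Ccl22 starts 26.4 kb before Cx3cl1 on the same strand of chromosome 8, and both genes were higher at both times in the OGT-KO-labelled libraries.

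Cxcl16, the ligand of Cxcr6 and a scavenger receptor for oxidised lipid, had 68.5 CPM with no recovery and 61.2 after 7 days in the OGT-KO-labelled libraries and 7.95 and 6.41 in the control-labelled ones. All 4 libraries held at least 128 reads, and the ratios were 8.61 (7.35 to 10.2) and 9.56 (7.97 to 11.5). Cxcl16 shares 552 exonic bases, 18.3% of its exons, with Zmynd15 on the opposite strand. Zmynd15 had ratios of 3.74 (3.15 to 4.46) with no recovery, then 3.73 (3.10 to 4.52) after 7 days, smaller than those of Cxcl16, and its part in the Cxcl16 value was not tested.

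**Figure D2:**
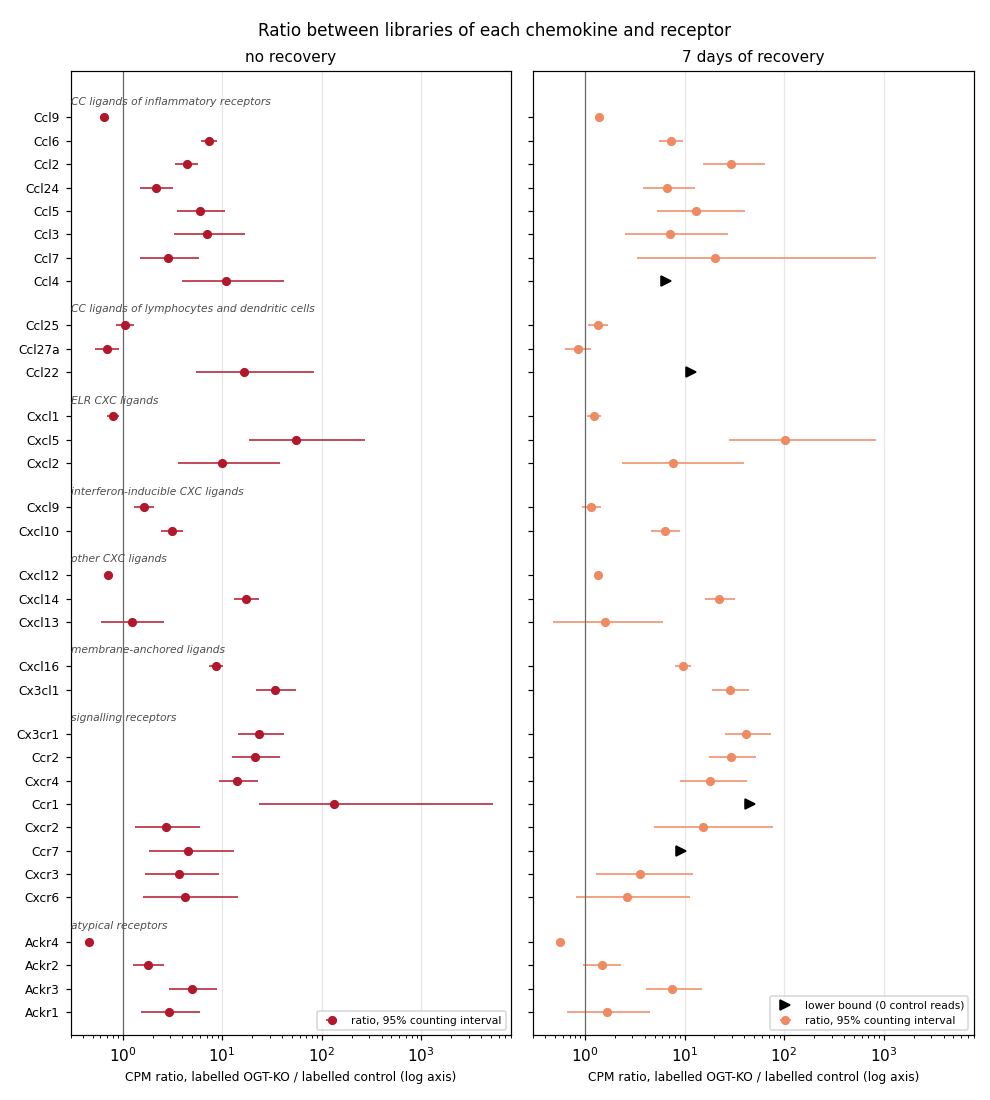
CPM ratio of the OGT-KO-labelled library to the control-labelled library for the same 33 genes on a log axis, with no recovery on the left and after 7 days on the right; bars are 95% counting intervals, black triangles lower bounds where the control library had 0 reads, and the vertical line marks 1. The interval lies above 1 for 26 of 33 genes at each time, against 72.6% of all listed genes with no recovery and 73.5% after 7 days. Ackr4 lies below 1 in both panels.

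The 9 signalling receptors were the group with the largest difference after 7 days. They summed to 79.7 CPM with no recovery and 94.4 after 7 days in the OGT-KO-labelled libraries, and to 7.06 and 4.41 in the control-labelled ones. The ratio of the sums was 11.3 (9.56 to 13.4) with no recovery, then 21.4 (17.3 to 26.8) after 7 days.

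Cx3cr1, the fractalkine receptor of monocytes and of some tissue macrophages, had 17.7 CPM with no recovery and 33.6 after 7 days in the OGT-KO-labelled libraries. The control libraries each held 16 reads, or 0.753 and 0.801 CPM. The ratio was 23.5 (14.3 to 41.6) with no recovery, then 41.9 (25.6 to 73.7) after 7 days, and within the OGT-KO-labelled libraries the level after 7 days was 1.90 (1.68 to 2.14) times that with no recovery.

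Ccr2, the receptor that brings Ly6c-high monocytes out of the marrow towards Ccl2, had 15.0 CPM with no recovery and 21.8 after 7 days in the OGT-KO-labelled libraries, and 15 reads in each control library. Its ratio was 21.2 (12.7 to 38.3) and then 29.0 (17.4 to 52.3), and within the OGT-KO-labelled libraries it too was higher after 7 days, 1.46 (1.27 to 1.68)-fold.

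Ccr1, a receptor of monocytes, macrophages and neutrophils, had 6.21 CPM with no recovery and 6.82 after 7 days in the OGT-KO-labelled libraries, from 142 and 154 reads. The control libraries held 1 read and 0 reads. The ratio with no recovery was 132 (23.3 to 5250), and after 7 days the level was at least 45.4-fold higher in the OGT-KO-labelled library against the floor, with a lower counting limit of 36.5. Ccr1, Ccr2 and Cxcr6 all lie on chromosome 9 and were higher in the OGT-KO-labelled libraries at both times, Cxcr6 by less than the 2-fold call on the CPM + 1 scale and, after 7 days, within counting error.

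Cxcr4, the Cxcl12 receptor found on most leukocytes and on some endothelial and progenitor cells, had 14.7 CPM with no recovery and 7.22 after 7 days in the OGT-KO-labelled libraries and 1.03 and 0.401 in the control-labelled ones. Its ratios were 14.2 (9.22 to 23.0) and 18.0 (8.94 to 42.5). The level after 7 days was lower than with no recovery for both labels, 0.492 (0.405 to 0.594) times for OGT-KO and 0.387 (0.149 to 0.903) times for control. Cxcr2, the neutrophil receptor, had 1.40 CPM with no recovery and 2.30 after 7 days in the OGT-KO-labelled libraries and 0.517 and 0.150 in the control-labelled ones. Its ratio was 2.70 (1.33 to 5.95) with no recovery, then 15.3 (4.97 to 76.8) after 7 days, on 11 and 3 control reads.

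A further 3 signalling receptors, Ccr7 of dendritic cells and naive T cells and Cxcr3 and Cxcr6 of activated T and NK cells, were below a mean of 1 CPM. They had 12 to 32 reads in the OGT-KO-labelled libraries and 0 to 8 in the control-labelled ones. Ccr7 had a ratio of 4.49 (1.83 to 13.2) with no recovery, then was at least 9.15-fold higher after 7 days against the floor, with a lower counting limit of 7.00, and Cxcr3 had ratios of 3.72 (1.68 to 9.34) and 3.54 (1.29 to 12.1). For Cxcr6 the ratio was 4.28 (1.59 to 14.4) with no recovery, and the interval after 7 days, 2.66 (0.805 to 11.3), included 1. Cxcr6 lies within Fyco1 on the opposite strand.

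The atypical receptors went against the signalling receptors in sum, and 1 gene accounted for it. They summed to 51.9 and 55.4 CPM in the OGT-KO-labelled libraries and 95.4 and 88.0 in the control-labelled ones. Ackr4, a scavenger of Ccl19, Ccl21 and Ccl25, had 42.0 CPM with no recovery and 47.6 after 7 days in the OGT-KO-labelled libraries and 91.8 and 85.2 in the control-labelled ones. The ratio was 0.458 (0.423 to 0.495) with no recovery, then 0.559 (0.518 to 0.604) after 7 days, when it was short of the 2-fold call. The log2 fold change of Ackr4 after 7 days was -0.83 in CPM. It was past the call under upper-quartile (-1.30) and median-ratio (-1.50) scaling. Its reads were 89.5% (88.2 to 90.8) and 92.2% (90.9 to 93.4) of all receptor reads in the control libraries with no recovery and after 7 days, and 31.9% (30.3 to 33.6) and 31.8% (30.2 to 33.4) in the OGT-KO-labelled libraries.

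The Ackr4 value has to be set beside that of Acad11, an acyl-CoA dehydrogenase gene. In the annotation Ackr4 (chr9:104084157-104126933, minus strand, GRCm38) lies wholly within Acad11 (chr9:104063377-104127725, plus strand), and 479 bases of its exons, 8.90%, are also Acad11 exons. Acad11 had 153.8 and 172.5 CPM in the OGT-KO-labelled libraries with no recovery and after 7 days, and 338.0 and 300.8 in the control-labelled ones. Its ratios of 0.455 (0.437 to 0.474) and 0.573 (0.551 to 0.597) were close to those of Ackr4. Without knowing whether counting used the strand, reads of Ackr4 and of Acad11 in the shared stretch cannot be told apart.

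Of the other atypical receptors, Ackr3 (the Cxcl12 scavenger once called Cxcr7) had 3.98 CPM with no recovery and 4.48 after 7 days in the OGT-KO-labelled libraries and 0.800 and 0.601 in the control-labelled ones. It was higher at both times, with ratios of 4.98 (2.94 to 8.91) and 7.45 (4.08 to 14.9). Ackr2, which degrades inflammatory CC chemokines, had 4.11 CPM with no recovery and 2.66 after 7 days against 2.26 and 1.80, with ratios of 1.82 (1.27 to 2.63) and 1.48 (0.960 to 2.30). The second interval includes 1, and its log2 value turned to -0.09 under median-ratio scaling. Ackr1, the Duffy antigen of venules and red cells, had a ratio of 2.93 (1.54 to 5.96) with no recovery, then 1.66 (0.660 to 4.52) after 7 days. It shares 361 exonic bases, 25.7% of its exons, with Cadm3 on the same strand, so its reads are uncertain.

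In all, 8 of the 34 genes were below a mean of 1 CPM (Ccl4, Ccl7, Cxcl2, Cxcl13, Ccr7, Cxcr3, Cxcr6 and Ackr1). They had 9 to 47 reads in the OGT-KO-labelled libraries and 0 to 15 in the control-labelled ones. The counting interval of the ratio was above 1 for 7 of these 8 with no recovery and 5 of 8 after 7 days. Over all 34 genes it was above 1 for 27 at each time (79.4%). Of all listed genes, the interval was above 1 for 72.6% with no recovery and 73.5% after 7 days, so these counts are near that share. The interval was below 1 for 5 genes with no recovery, Ccl9, Cxcl1, Cxcl12, Ccl27a and Ackr4, against 14.9% of all genes, and 1, Ackr4, after 7 days, against 12.7%.

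Receptors were then set beside their ligands. Of 32 pairs listed from textbook knowledge, 15 had both genes in the table, with 7 receptors and 14 ligands. In 5 pairs both genes were at least 2-fold higher at both times in the OGT-KO-labelled libraries. These were Ccr1 with Ccl3, Ccl5 and Ccl6, Ccr2 with Ccl2, and Cx3cr1 with Cx3cl1. Ccl3 met the rule narrowly after 7 days, at a log2 fold change of 1.01. It fell short of it under upper-quartile (0.84) and median-ratio (0.77) scaling. The pairs share genes, so they are not independent of each other. Singly, 16 of the 34 genes (47.1%) met this rule, against 26.9% of all listed genes. A share over pairs of other genes is not given, so the count of pairs is a description.

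On this scale Cx3cr1 and Cx3cl1 had the largest changes of the 15 pairs, though not with a pseudocount of 0.1 or 10 CPM, with log2 fold changes of 3.42 for the receptor and 4.11 for the ligand with no recovery, and 4.26 and 3.99 after 7 days. With no recovery the gap was wide between Cxcr4 and Cxcl12, at 2.95 for the receptor and -0.49 for the ligand, and nearly as wide between Ccr1 and Ccl9, at 2.78 and -0.60. Which of these gaps was the wider turned under upper-quartile scaling, median-ratio scaling and a pseudocount of 0.1 CPM. Of the pairs with Cxcr2, the ligand Cxcl5 changed by 2.94 and 3.35 where the receptor changed by 0.66 and 1.52 and Cxcl1 by -0.30 and 0.29. For Cxcr6 and Cxcl16 the ligand stood out, at 2.96 and 3.07 against 0.70 and 0.35 for the receptor.

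**Figure D3:**
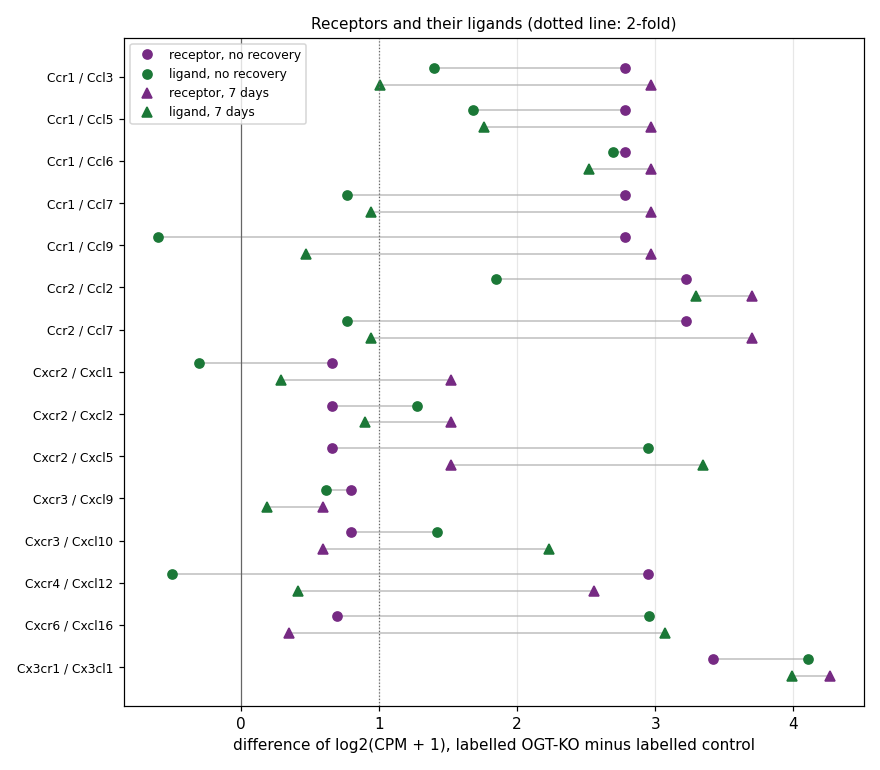
Difference of log2(CPM + 1) between the OGT-KO-labelled libraries and control for 15 receptor and ligand pairs, 1 row per pair; purple is the receptor, green the ligand, circles no recovery and triangles 7 days, and the dotted line marks 2-fold. Both colours lie to the right of the dotted line at both times in 5 rows (singly, 47.1% of the 34 genes and 26.9% of all listed genes do). The rows of Cxcr4 with Cxcl12 and of Ccr1 with Ccl9 have wide gaps of nearly equal size with no recovery.

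The genes that act on, or downstream of, chemokines were summarised from lists chosen with earlier results of these data known. Of 16 genes of chemokine receptor signalling past 1 CPM, 14 were at least 2-fold higher at both times in the OGT-KO-labelled libraries and 0 were lower, where 28% and 2.98% of all genes past 1 CPM met those rules. Here 3 of the 14 (Pik3cg, Pik3r5 and Rgs1) had a control mean below 1 CPM and passed the filter only through the OGT-KO-labelled libraries, so the count is a description, as are those of the lists that follow. By mean level they were led by Gnai2, the inhibitory G protein subunit of leukocytes, at a ratio of 2.97 (2.83 to 3.11) with no recovery, then 3.08 (2.93 to 3.25) after 7 days. Gnai3, the more widespread subunit, had log2 fold changes of 0.93 and 0.87 and was not called. Grk2, the kinase that desensitises the receptors, had 1.10 and 1.19, and Arrb2, the arrestin that takes them inside, 1.31 and 1.93.

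Of 12 leukocyte adhesion genes past 1 CPM, 10 were at least 2-fold higher at both times, against 28% of all genes, and some of the 12, Itgam among them, passed only through the OGT-KO-labelled libraries. Vcam1, the endothelial ligand of the integrin VLA-4, had 119 and 96.1 CPM in the OGT-KO-labelled libraries and 6.82 and 4.51 in the control-labelled ones. Its ratios were 17.4 (14.7 to 20.7) and 21.3 (17.3 to 26.6), while Icam1, the ligand of the beta-2 integrins, had 4.35 (3.87 to 4.90) and 3.70 (3.29 to 4.18). The integrin genes Itgb1 and Itgal had log2 fold changes of 1.17 and 1.65 with no recovery and 1.07 and 2.81 after 7 days.

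Among cytokines and transcription factors known to induce chemokines, 7 of 12 genes past 1 CPM were at least 2-fold higher at both times and 0 were lower, against 28% and 2.98% of all genes. Il1b and Tnf, both among the 7, passed the filter only through the OGT-KO-labelled libraries. Of the 4 with the highest mean, Irf7, an interferon-driven factor, was called, with log2 fold changes of 1.69 and 1.35. Stat3 had 0.48 and -0.22, Rela, an NF-κB subunit, 0.71 and 0.40, and Nfkbia, its inhibitor and target, 0.26 and 0.67, and none of these 3 was called at either time.

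Markers of the cells that carry the receptors differed in the same comparison. All 8 monocyte or macrophage markers (Adgre1, Csf1r, Cd68, Lyz2, Ly6c2, Itgam, Cd14 and Fcgr1) were at least 2-fold higher at both times in the OGT-KO-labelled libraries, against 28% of all genes past 1 CPM, and of these Itgam and Ly6c2 passed the filter only through those libraries. Their sum was 697 CPM with no recovery and 597 after 7 days in those libraries and 128 and 49.4 in the control-labelled ones, a ratio of 5.47 (5.25 to 5.69) and 12.1 (11.3 to 12.9). The ratios of the single markers ran from 3.73 (Csf1r) to 31.1 (Cd14) with no recovery, then from 5.56 (Ly6c2) to 31.9 (Cd14) after 7 days. The ratios of Ccr1, Ccr2 and Cx3cr1 given above were larger than those of the summed markers, but those of Ccr2 were below those of Cd14 at both times. How much of the receptor levels follows the marker levels was not tested.

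Of the 5 Kupffer cell markers (Clec4f, Timd4, Vsig4, Cd5l and Marco), 4 were higher at both times, against 28% of all genes past 1 CPM. Their summed ratios were 3.33 (3.21 to 3.45) and 5.57 (5.25 to 5.91). The 3 neutrophil markers past 1 CPM (of 4 in the table) were all higher at both times, against the same 28%. Of them, S100a8 and S100a9 passed the filter only through the OGT-KO-labelled libraries, so the count is a description. The list summed to 28.4 and 43.2 CPM in the OGT-KO-labelled libraries and 4.99 and 2.15 in the control-labelled ones. Ly6g and Retnlg, which define mature neutrophils, were not analysed here. Dendritic cell markers had 2 of 4 genes past 1 CPM higher at both times, against 28% of all genes. These were Flt3 and Itgax, which passed only through the OGT-KO-labelled libraries. The list had summed ratios of 4.42 (3.81 to 5.15) and 4.70 (3.98 to 5.57). Itgax made up most of the sums of the OGT-KO-labelled libraries, with ratios of 25.1 (16.4 to 40.3) and 33.9 (20.1 to 62.5). Zbtb46 had ratios of 1.70 and 1.53 and Clec9a of 1.82 and 1.57, and neither was called.

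Lymphocyte markers were few. The 4 T cell markers in the table summed to 8.35 and 4.34 CPM in the OGT-KO-labelled libraries and 3.06 and 3.10 in the control-labelled ones. Cd4 made up most of the control sums, with a ratio of 1.49 with no recovery, then 0.639 (0.412 to 0.983) after 7 days. Cd3e, Cd3g and Cd8a were higher in the OGT-KO-labelled libraries beyond counting error at both times, on few control reads. The ratios were 3.65 and 3.16 for Cd3e and 4.53 and 14.2 for Cd3g. Cd8a had 32 reads against 1 with no recovery and 18 against 0 after 7 days. Of the 2 past 1 CPM, 0 were called higher at both times, against 28% of all genes. NK cell markers summed to at most 2.10 CPM and B cell markers to at most 3.63 CPM in any library, with 0 genes past 1 CPM. The receptors of these cells, Cxcr3, Cxcr6 and Ccr7, were among the 5 lowest of the 34 in CPM per kb. The neutrophil receptor Cxcr2 and the ligand Cxcl2 were the others of these 5.

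Markers of cells that make chemokines were also compared. The 4 cholangiocyte markers (Krt19, Krt7, Epcam and Sox9) were all higher at both times, against 28% of all genes past 1 CPM. Krt7 passed only through the OGT-KO-labelled libraries. Their summed ratios were 13.5 (11.9 to 15.3) and 12.1 (10.9 to 13.5). The 6 stellate cell markers were all higher at both times too, with summed ratios of 4.35 (4.19 to 4.51) and 6.12 (5.86 to 6.40). Of the 6 endothelial markers 1 was higher at both times, against the same 28%, with summed ratios of 1.81 (1.74 to 1.88) and 1.86 (1.77 to 1.95). Their median log2 fold changes were 0.96 and 0.76, where those of all genes past 1 CPM were 0.64 and 0.61. The platelet gene Itga2b was called at neither time. Hepatocyte markers had 0 genes higher and 1 lower at both times, against 28% and 2.98% of all genes past 1 CPM. Their summed ratios were 0.746 (0.744 to 0.748) and 0.824 (0.823 to 0.826). No marker in the table was at 0 in all 4 libraries, and the part of any of these cells in the ligand levels was not tested.

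**Figure D4:**
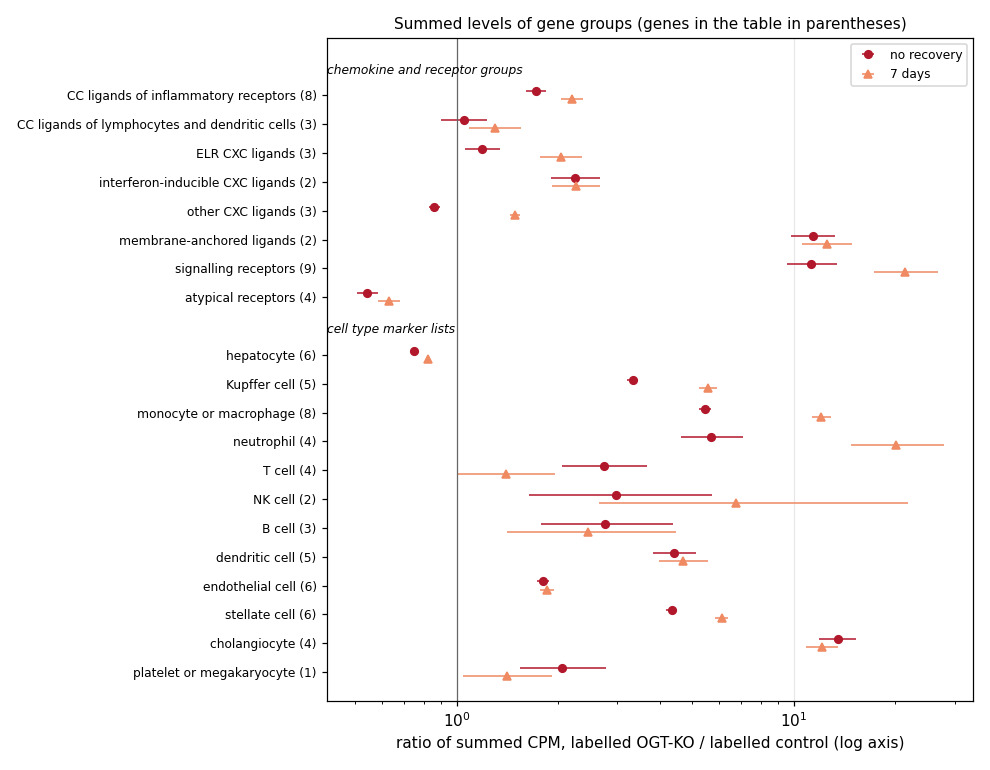
Ratio of the summed CPM of each gene group between the OGT-KO-labelled libraries and control on a log axis, circles for no recovery and triangles for 7 days, with 95% counting intervals; chemokine and receptor groups are above, cell type marker lists below, and the vertical line marks 1. The membrane-anchored ligands and the signalling receptors lie above 11 at both times, next to the cholangiocyte list, while the atypical receptors and the hepatocyte list lie below 1.

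The effect of recovery was compared within each label. In the control libraries 30 of the 34 genes were lower after 7 days than with no recovery by any amount, against 58.4% of all listed genes, and 13 were lower beyond counting error, against 25.1%. Higher by any amount were 4, against 40.5%, and 1, Cxcl9, was higher beyond counting error, against 12.2%. On the 2-fold scale 1 gene, Ccl2, was lower, against 0.964% of all listed genes and 1.02% of those past 1 CPM, and 0 were higher, against 0.223% and 0.239%. Ccl2 went from 69 to 9 reads, a ratio of 0.139 (0.0609 to 0.279). In the OGT-KO-labelled libraries its ratio was 0.926 (0.789 to 1.09).

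Other ligands with fewer reads in the control library after 7 days were Ccl6 at a ratio of 0.503 (0.364 to 0.689), Cxcl1 at 0.571 (0.491 to 0.663), Cxcl10 at 0.558 (0.377 to 0.817) and Ccl24 at 0.355 (0.179 to 0.663). Of the receptors, Cxcr4 had 0.387 (0.149 to 0.903). Over the same interval the monocyte or macrophage markers of the control libraries had a summed ratio of 0.387 (0.359 to 0.416) and the Kupffer cell markers of 0.357 (0.335 to 0.380), and their part in the ligand levels was not tested.

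In the OGT-KO-labelled libraries the direction was divided. Of the 34 genes 15 were higher and 19 lower after 7 days by any amount, against 47.4% and 52.6% of all listed genes, and 0 were called at 2-fold in either direction, against 1.28% higher and 0.791% lower (1.31% and 0.708% past 1 CPM). Beyond counting error, 7 were higher (Ccl9, Cxcl5, Cxcl12, Cx3cr1, Ccr2, Cxcr2 and Ackr4), against 24.5% of all listed genes, and 9 lower (Ccl3, Ccl4, Ccl5, Ccl6, Ccl7, Cxcl16, Cxcr4, Ackr1 and Ackr2), against 27.7%. Ccl9 had the largest ratio at 2.02 (1.84 to 2.21), followed by Cx3cr1 at 1.90 (1.68 to 2.14) and Cxcl12 at 1.68 (1.62 to 1.75). Ccl6, next to Ccl9 on chromosome 11, had 0.497 (0.445 to 0.554), and Cxcr4, the receptor of Cxcl12, had 0.492 (0.405 to 0.594).

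The recovery comparisons and the comparisons of labels use the same 4 libraries, so a low value of 1 library enters both. The control library after 7 days was the one with 0 reads for Ccl4, Ccl22, Ccr1 and Ccr7, and the other 3 libraries had at least 1 read of every gene. Whether the change over recovery differs between the labels was not tested, since each label and time had 1 library.

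**Figure D5:**
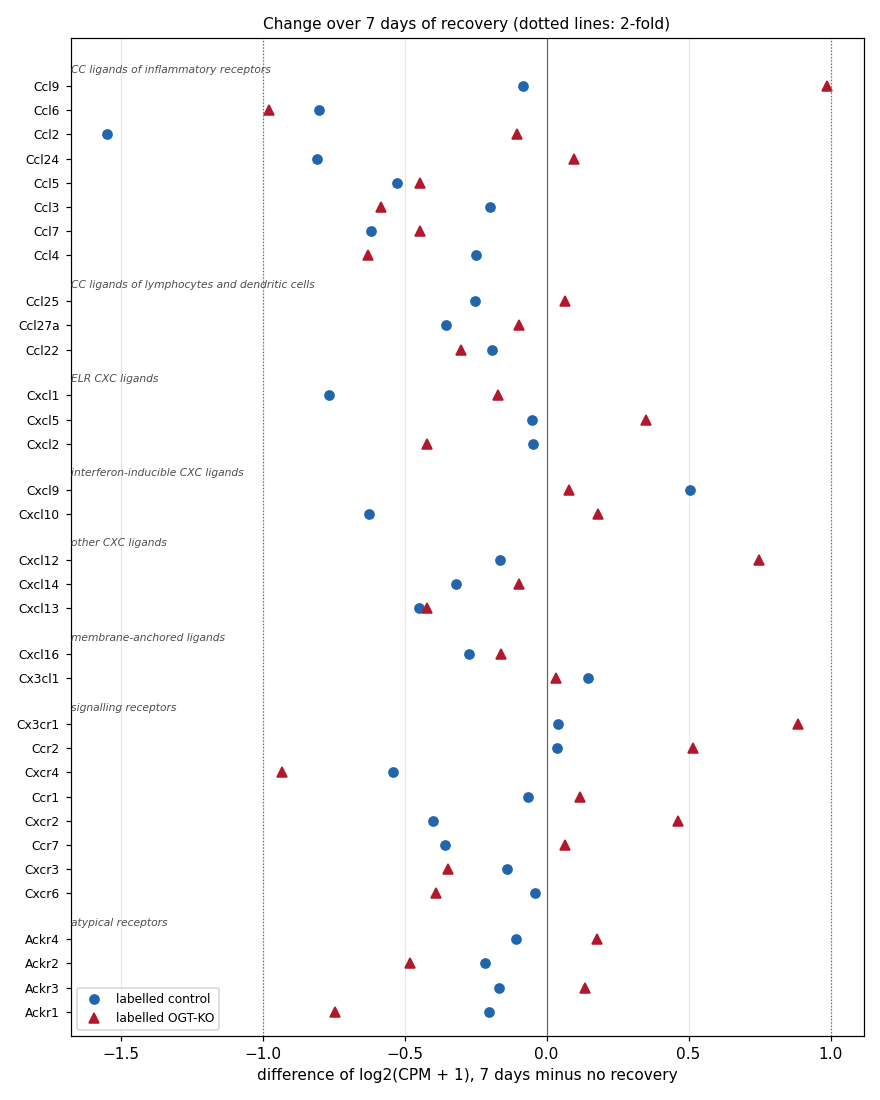
Difference of log2(CPM + 1) between 7 days and no recovery for 33 genes, circles for the control-labelled libraries and triangles for the OGT-KO-labelled ones; dotted lines mark 2-fold and the solid line no difference. The circle of Ccl2 is the only point beyond a dotted line, 29 of 33 circles lie left of 0, and the triangles lie on both sides.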

How the data were processed

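The data are 4 bulk mRNA-seq libraries of mouse liver, 1 per group. The submitters' processing notes name STAR, DESeq2 and GRCm39. The authors deposited 1 table, named for DESeq2 but holding CPM, since every column sums to 1000000. In it 100.0% of values were whole multiples of 1 read. The tolerance was 0.001 reads and was widened in proportion to the reads for genes with many reads, so the check is weak for the highest genes. Whole reads were recovered. The 34 members and the gene lists were chosen with earlier results of these data known.

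Differences were taken on log2(CPM + 1) over all genes and called at 2-fold, with a filter of a mean of at least 1 CPM and beside it without one. Every member past 1 CPM is named with its values except 1 gene, which enters counts and sums but is not reported here, as are up to 4 genes of highest mean in each pathway list. List genes named for passing the filter only through the OGT-KO libraries or as the ends of a range were chosen after their values were seen. Alternatives were pseudocounts of 0.1 and 10, no filter, a mean of at least 10, upper-quartile and median-ratio scaling, a 4-fold threshold, and an exact binomial test on reads with Benjamini-Hochberg adjustment, which compares libraries and not conditions. Intervals were exact and cover counting error only. Genes were placed with GENCODE M21 (GRCm38), whose coordinates were not converted to GRCm39. Exonic length is the union of exons. Steps were tested on simulated reads. Python 3.11, numpy 2.4.6, scipy 1.17.1 and pandas 2.3.3 were used.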

Additional observations from a re-analysis of the deposited data

Results flagged for a closer look

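Of the 34 genes 3 had counting intervals on opposite sides of 1 at the 2 times, and this difference between times was not tested, since each condition has 1 library. Ccl9 had a log2 fold change of -0.60 between the OGT-KO-labelled and control-labelled libraries with no recovery and 0.47 after 7 days. For Cxcl1 the values were -0.30 and 0.29, and for Cxcl12 they were -0.49 and 0.42. Under upper-quartile or median-ratio scaling 0 genes had intervals on opposite sides.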

How the results depend on the processing

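No pairing of animals was possible because each condition has 1 library and the labels give no replicate numbers, and no library could be left out. A fit of label plus time, which pairs the labels by time and would leave 1 residual degree of freedom, was not run. Of the 26 members past 1 CPM, 16 were higher with no recovery, 18 after 7 days and 16 at both times. A pseudocount of 10 CPM left 8, 8 and 7 and a mean of at least 10 CPM left 6, 6 and 6, since fewer genes enter or pass, and a 4-fold threshold left 10 with no recovery and 10 at both times. Members lower with no recovery were 1 in the main setting, 2 by upper quartile, 4 by median ratio, and 0 with a pseudocount of 10 or a 4-fold threshold. After 7 days, and at both times, they were 0 in the main setting and 1 by upper quartile and 1 by median ratio. In the control libraries, Ccl2 alone was lower after recovery, against 6 members with a pseudocount of 0.1 and 0 with a pseudocount of 10, a mean of at least 10 or a 4-fold threshold. In the OGT-KO-labelled libraries, members higher after recovery were 0, against 1 with a pseudocount of 0.1, by upper quartile or by median ratio, and members lower were 0, against 2 with a pseudocount of 0.1. Members with intervals on opposite sides of 1 at the 2 times were 3, against 0 by upper quartile and 0 by median ratio, a pair of alternatives chosen after seeing the data. No other count moved by over 1.5 times, and no called value reversed. The exact binomial test, with Benjamini-Hochberg adjustment, called 25 of 26 members with no recovery and 23 after 7 days, where it called 11450 and 11276 of 12989 genes. Depth limits members with 4 or fewer reads in a library, whose ratios between labels had intervals wider than 10-fold, and 1 pool of 3 mice per condition limits every comparison.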

Other observations

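Attractants other than the chemokines of the 34 were measured beside them. Of 9 such genes past 1 CPM, 6 were at least 2-fold higher at both times in the OGT-KO-labelled libraries and 0 were lower, against 28% and 2.98% of all genes past 1 CPM. Of the 9, 3 (Cklf, Pf4 and Xcr1) passed the filter only through the OGT-KO-labelled libraries, with a control mean below 1 CPM, so the count is a description. Rarres2, the liver-made precursor of chemerin, had the highest mean of them and log2 fold changes of -0.32 with no recovery and 0.00 after 7 days. Cmklr1, the chemerin receptor of macrophages and plasmacytoid dendritic cells, had 2.66 and 2.98. Mif, a cytokine that binds Cxcr2 and Cxcr4, had 1.13 and 1.02, and C5ar1, the receptor of the complement attractant C5a, 2.93 and 2.60.

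Of 6 proteases past 1 CPM that shed or trim chemokines, 5 were at least 2-fold higher at both times, against 28% of all genes, and Mmp9 and Mmp12, both among the 5, passed the filter only through the OGT-KO-labelled libraries. Adam10 and Adam17, which release Cx3cl1 and Cxcl16 from the membrane, had ratios of 3.16 (2.86 to 3.48) and 2.07 (1.88 to 2.28) with no recovery, then 3.27 (2.96 to 3.63) and 2.48 (2.25 to 2.73) after 7 days. Mmp2, which trims Ccl7 and Cxcl12, had 17.3 (13.6 to 22.2) and 33.1 (25.4 to 43.8). Dpp4, which cuts the N-terminus of Cxcl12, Cxcl10 and others, was the exception, with 50.1 CPM against 103 in the control library with no recovery and 95.9 against 109 after 7 days. Its log2 fold change was -1.03 with no recovery, past the 2-fold call, and -0.18 after 7 days.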
